A study of Bos taurus with 6 samples.

Results

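LRP8 and MAPK4 were followed here, 2 of the 24579 genes counted by RNA sequencing in mammary tissue of first-lactation Holstein heifers (Bos taurus). LRP8 is a cell surface receptor for reelin and MAPK4 is a protein kinase. Both were chosen by their values in these same animals, as genes at about 50% of the level of the in utero cooled heifers in the heifers heat stressed in utero. Their identifiers, ENSBTAG00000000736 for LRP8 and ENSBTAG00000009907 for MAPK4, came from the gene lists that accompany the study. Because that contrast selected them, their levels are given as a description, with no test.

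All heifers were born in 2014 and biopsied at 21 d of their first lactation. The dams of the 3 IUHT-H had shade alone during the last weeks of gestation and were heat stressed. The dams of the 3 IUCL-H had shade, fans and soakers over the same stage. After birth both groups were managed alike, so the prenatal environment of the heifer is the difference that the design names. The study describes 4 IUCL-H, and the remaining heifer was not analysed here. The heifer is the replicate, and each is called by its number (9202, 9214 and 9223 for the IUCL-H, 9196, 9203 and 9204 for the IUHT-H).

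Reelin is a secreted glycoprotein that binds LRP8, also called apolipoprotein E receptor 2, and the very low density lipoprotein receptor VLDLR. Binding leads to phosphorylation of the intracellular adaptor DAB1, a route best known from the positioning of neurons in the developing brain. LRP8 belongs to the low density lipoprotein receptor family, and it also binds apolipoprotein E and takes up selenoprotein P, the carrier of selenium in plasma. MAPK4, also called ERK4, is an atypical mitogen-activated protein kinase. It lacks the doubly phosphorylated activation motif of the classical kinases ERK1 and ERK2, and its best known partner is the kinase MAPKAPK5.

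Counted reads per heifer ranged from 91696849 to 101361294 in IUCL-H and from 75754791 to 84969285 in IUHT-H, so that every IUHT-H library was smaller than every IUCL-H library. The 10 most counted genes held between 64.7% and 74.7% of the reads of a heifer. Levels are therefore given as counts per 1000000 reads (CPM) after scaling by the trimmed mean of M-values (TMM), which sets the libraries on a common scale. Mammary tissue holds several cell types, and in such bulk samples fewer cells of a type and less RNA per cell cannot be told apart. Defining markers of mammary epithelium, fat and immune cells had no matched identifier and were not analysed here, so the labelled tissue was not checked against them.

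The reelin receptor LRP8 was lower in every IUHT-H than in every IUCL-H. Its counts were 269, 374 and 331 in heifers 9202, 9214 and 9223 of the IUCL-H. In heifers 9196, 9203 and 9204 of the IUHT-H they were 177, 179 and 110. In CPM these were 2.67, 4.14 and 3.77 in the IUCL-H and 1.96, 1.91 and 1.59 in the IUHT-H. The groups did not overlap, with heifer 9214 the highest and heifer 9204 the lowest of the 6. The IUCL-H averaged 3.53 ± 0.764 CPM (SD, n = 3) and the IUHT-H 1.82 ± 0.199 CPM (SD, n = 3), which was 51.6% of the IUCL-H mean. On the log2 scale the fitted difference of IUHT-H relative to IUCL-H was -0.95 (SE 0.22).

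The nearest heifers of the opposite groups were IUCL-H 9202 and IUHT-H 9196, and LRP8 in the former was 1.36 times that in the latter. Their 95% Poisson intervals, which cover counting error only, ran from 2.36 to 3.01 CPM and from 1.69 to 2.28 CPM and did not overlap. Over the 9 pairs of an IUHT-H with an IUCL-H, the ratio of LRP8 lay between 0.385 and 0.735. The coefficient of variation between heifers was 21.6% in the IUCL-H and 10.9% in the IUHT-H with TMM factors, but 11.4% and 29.4% with library size alone, so that the order of the groups in spread turned with the scaling. Counting error alone gave a coefficient of variation between 5.17% and 9.53% for LRP8 in a heifer. In the fit, the biological coefficient of variation of LRP8 was 22.1%, against 26.7% on the trend for genes of its abundance.

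The atypical kinase MAPK4 was likewise lower in every IUHT-H than in every IUCL-H, but by a narrower gap. Its counts were 812, 891 and 441 in heifers 9202, 9214 and 9223 of the IUCL-H, against 314, 289 and 307 in heifers 9196, 9203 and 9204 of the IUHT-H. The corresponding levels were 8.07, 9.87 and 5.03 CPM in the IUCL-H and 3.49, 3.08 and 4.45 CPM in the IUHT-H. Heifer 9214 again had the highest value with TMM factors, whereas heifer 9223 stood apart from the other IUCL-H and close to the IUHT-H. The means were 7.66 ± 2.45 CPM (SD, n = 3) in the IUCL-H and 3.67 ± 0.705 CPM (SD, n = 3) in the IUHT-H, or 48.0% of the IUCL-H mean. The fitted log2 difference of IUHT-H relative to IUCL-H was -1.06 (SE 0.26). Library size alone put heifer 9202 highest for MAPK4, at 8.86 CPM against 8.79 CPM in heifer 9214.

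The edge between the groups lay between IUCL-H 9223 and IUHT-H 9204, where MAPK4 differed by a factor of 1.13. Here the 95% Poisson intervals overlapped, from 4.57 to 5.52 CPM in heifer 9223 and from 3.97 to 4.98 CPM in heifer 9204. Overlap of such intervals is not a test, and the difference between these 2 heifers was not tested. The group means lay further apart. Library size alone set the edge between IUCL-H 9223 at 4.55 CPM and IUHT-H 9196 at 4.14 CPM. With TMM factors the ratio of MAPK4 over the 9 pairs ranged from 0.312 to 0.885. The coefficients of variation of MAPK4 between heifers were 32.0% in the IUCL-H and 19.2% in the IUHT-H with TMM factors, and 33.4% and 8.17% with library size alone. Counting error gave only 3.35% to 5.88% in a heifer. Its biological coefficient of variation was 24.3%, against 21.2% on the trend.

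**Figure D1:**
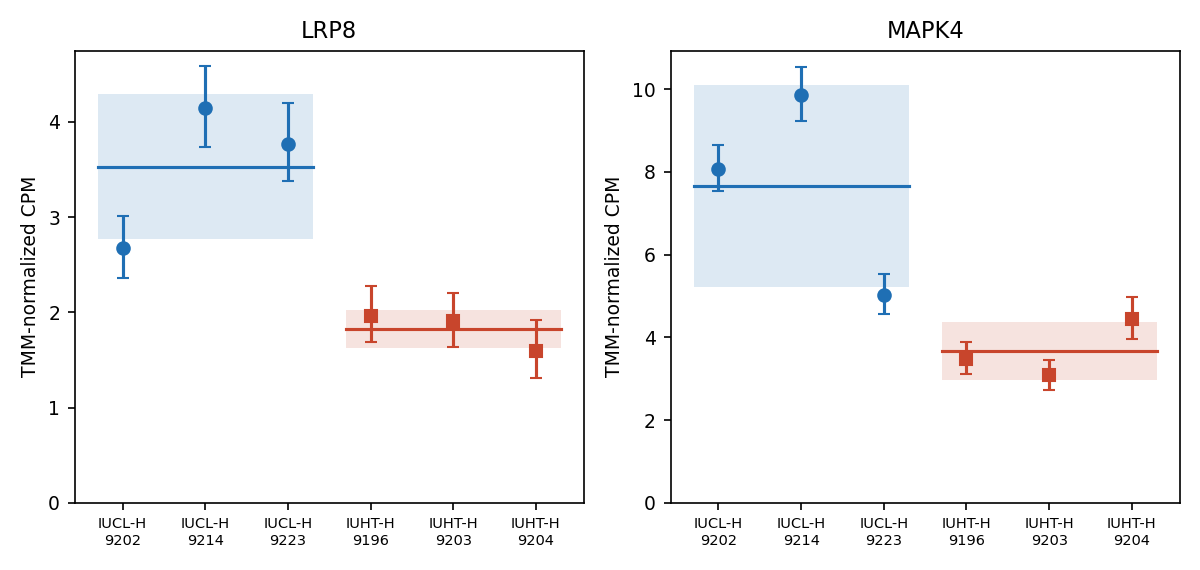
TMM-normalized CPM (y axis, from 0) of LRP8 and MAPK4 in each of the 6 heifers (x axis); points are heifers with 95% Poisson intervals, and lines and bands are group means ± SD (n = 3). For LRP8 the intervals of the nearest heifers, 9202 and 9196, stay apart, whereas for MAPK4 those of 9223 and 9204 overlap.

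The filter on low counts kept 14724 genes, both members included. In the quasi-likelihood fit of all of them, 21 genes (0.143%) were lower in IUHT-H at an unadjusted cut-off of 0.01. Counting either direction, 63 genes (0.428%) passed that cut-off. After Benjamini-Hochberg adjustment at 0.05 the edgeR quasi-likelihood test called 0 genes (0%), the smallest adjusted p being 0.0765. In 430 genes (2.92%) all IUHT-H lay below all IUCL-H. Since the contrast chose LRP8 and MAPK4, these counts give only the setting in which they stood. Among the 12041 genes with a mean of at least 1 CPM in a group, MAPK4 was the 25th and LRP8 the 36th most lowered by fold change. Of the 36 genes lowered at least as much as LRP8, both members included, 10 had groups that did not overlap. Of the 25 lowered at least as much as MAPK4, itself included, 8 did not overlap. The share without overlap among the 12041 genes was not computed.

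With TMM factors LRP8 and MAPK4 ranked the heifers of a group differently. In the IUCL-H, heifer 9214 was highest for both, but heifer 9202 was lowest for LRP8 and heifer 9223 was lowest for MAPK4. In the IUHT-H, heifer 9204 had the lowest LRP8 and the highest MAPK4. Relative to the group mean in log2 CPM, LRP8 deviated by -0.37, 0.25 and 0.12 in heifers 9202, 9214 and 9223 (IUCL-H) and by 0.11, 0.07 and -0.18 in heifers 9196, 9203 and 9204 (IUHT-H). For MAPK4 the deviations in the same order were 0.13, 0.42 and -0.55, and -0.06, -0.24 and 0.29. Only heifer 9214 of the 6 deviated in the same direction for both genes. This order depended on the scaling. Library size alone put heifer 9196 highest of the IUHT-H for both genes, with LRP8 at 2.34 CPM and MAPK4 at 4.14 CPM.

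Over all 6 heifers Pearson's r between the genes was 0.72 and Spearman's rank coefficient 0.77. As both were selected as lower in IUHT-H, the offset between the groups sets much of this value. Once the group means were taken away, r was -0.20, on only 3 heifers a group. A correlation over so few animals describes these heifers and no more. The number of LRP8 counts per 100 MAPK4 counts, which does not depend on how libraries are scaled, was 33.1, 42.0 and 75.1 in IUCL-H 9202, 9214 and 9223. In IUHT-H 9196, 9203 and 9204 it was 56.4, 61.9 and 35.8. The groups overlapped in this ratio, and its extremes, in heifers 9202 and 9223, were both in IUCL-H.

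**Figure D2:**
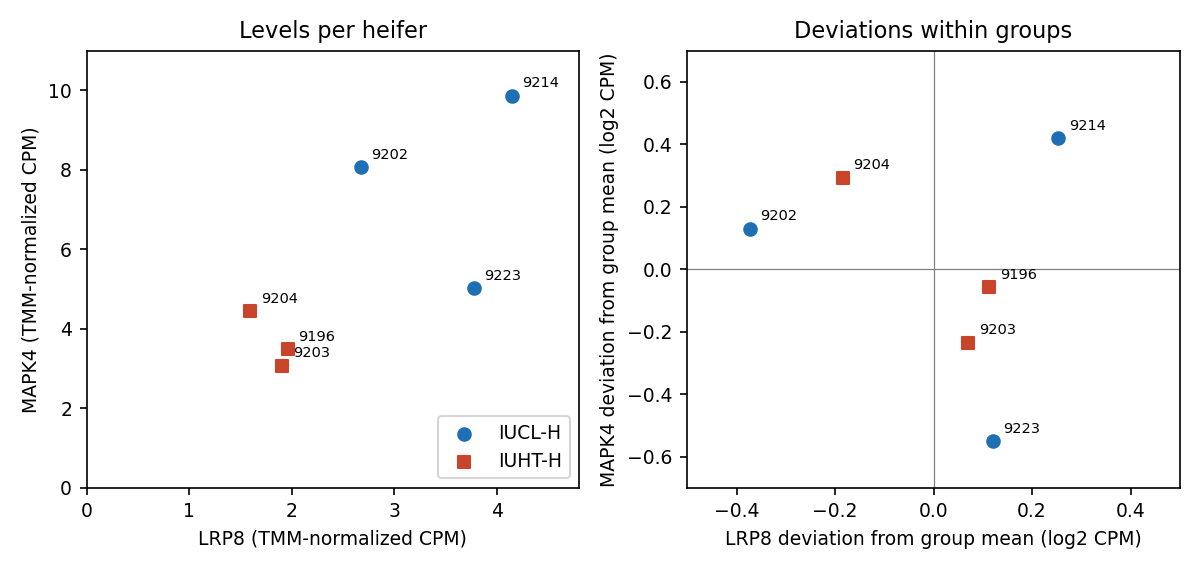
MAPK4 (y axis) against LRP8 (x axis) in 6 heifers, as TMM-normalized CPM at left and as log2 deviations from the group mean at right; circles are IUCL-H and squares IUHT-H, labelled with heifer numbers. The groups separate at left (r = 0.72), whereas at right heifer 9214 alone lies above 0 for both genes and no heifer lies below 0 for both.

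Genes with the profile most like each member were also sought among genes with a mean of at least 1 CPM in either group. The study's own lists gave a symbol to 375 genes, of which 274 were in its methylation lists alone, partly of calf liver, and the rest in its differential expression list of these heifers. The 12 genes named below were all in the differential expression list, so that their differences between the groups are not independent evidence. LRP8 had r above 0.9 with 84 of the 12039 genes compared, and MAPK4 had it with 86, of which 9 and 4 carried a symbol. The lists shared 0 genes (0% of each). With r at 0.72 between the members, no gene could exceed r of 0.93 with both. LRP8 was not the closest partner of MAPK4, since 5.29% of genes had a higher r with MAPK4, and 6.42% had a higher r with LRP8 than MAPK4 had.

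Of the named genes, the closest to LRP8 was NR3C2, the mineralocorticoid receptor through which aldosterone acts (r = 0.97 over 6 heifers). NR3C2 was at 18.2, 25.4 and 27.5 CPM in IUCL-H 9202, 9214 and 9223 and at 13.1, 11.1 and 11.9 CPM in IUHT-H 9196, 9203 and 9204, a fitted log2 difference of -0.98. As for LRP8, heifer 9202 was the lowest of the IUCL-H. Next came ARHGEF26 (r = 0.96), a guanine nucleotide exchange factor, with 12.6, 13.6 and 13.7 CPM in the IUCL-H and 9.08, 9.14 and 8.70 CPM in the IUHT-H. The drug and conjugate transporter ABCC10 (r = 0.95), the membrane protein CMTM7 (r = 0.93) and the tetraspanin TSPAN15 (r = 0.93), a regulator of the protease ADAM10, followed, with log2 differences of -0.46, -0.51 and -0.61. With TMM factors heifer 9202 was the lowest IUCL-H in all 5, as in LRP8, and no group overlapped the other. Choosing these genes by their r with LRP8 favours both such a shared order and groups that lie apart. Of all 14724 genes tested, 430 (2.92%) had all IUHT-H below all IUCL-H. With library size alone ARHGEF26 moved from -0.57 to -0.42 and ABCC10 from -0.46 to -0.31, by more than their spread between heifers. The median log2 difference of all genes moved the same way under that scaling, from 0.0028 to 0.134. Heifer order and overlap of these genes under that scaling are not given.

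The genes nearest to MAPK4 ordered the heifers differently. SLC44A3 (r = 0.93), of the choline transporter-like family, was at 16.7, 18.1 and 15.7 CPM in IUCL-H 9202, 9214 and 9223 and at 12.3, 9.66 and 12.9 CPM in IUHT-H 9196, 9203 and 9204. SHCBP1 (r = 0.93), an SHC-binding protein of dividing cells, was at 4.34, 4.94 and 3.98 CPM in the IUCL-H and at 2.06, 1.82 and 3.19 CPM in the IUHT-H. With TMM factors heifer 9223 was the lowest of the IUCL-H and heifer 9204 the highest of the IUHT-H in these genes, as in MAPK4. With library size alone heifer 9196 had the highest MAPK4 of the IUHT-H, at 4.14 CPM against 3.61 CPM in heifer 9204. DMTN (r = 0.91), an actin-bundling protein of the membrane skeleton, and ZWILCH (r = 0.90), a kinetochore component of the mitotic checkpoint, had log2 differences of -1.07 and -0.62. DMTN averaged 1.38 CPM in the IUCL-H and 0.658 CPM in the IUHT-H, so it met the limit of 1 CPM through the IUCL-H alone. The alternative filter, above 1 CPM in at least 3 heifers, left DMTN out.

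The fifth gene, listed as BOLA and belonging to the bovine major histocompatibility complex, had r of 0.86 with MAPK4 and 0.86 with LRP8. It was at 119.8, 94.0 and 90.4 CPM in IUCL-H 9202, 9214 and 9223 and at 23.8, 13.3 and 18.2 CPM in IUHT-H 9196, 9203 and 9204. BOLA genes are close relatives of each other and differ between animals, so reads may be shared among copies and the BOLA level is uncertain. The named genes running most opposite to the members were looked up after their values were seen. They were CD244, a receptor of natural killer cells, for LRP8 (r = -0.98) and LCN2, the iron-binding defence protein lipocalin 2, for MAPK4 (r = -0.98). CD244 was at 2.35, 1.58 and 1.96 CPM in the IUCL-H and at 3.15, 3.06 and 3.23 CPM in the IUHT-H. LCN2 was at 10.2, 6.10 and 14.8 CPM and at 24.8, 37.8 and 21.4 CPM, in the same order of heifers. Whether cell composition had a part in the levels of LRP8 or MAPK4 was not tested.

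**Figure D3:**
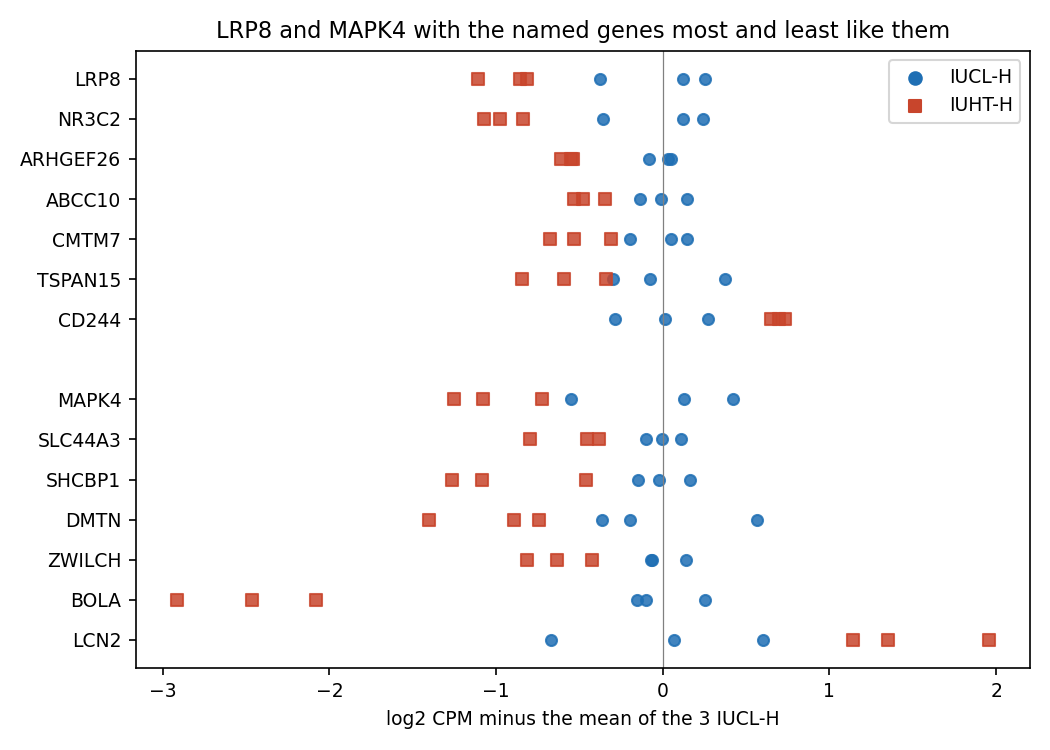
Log2 CPM of each heifer minus the mean of the 3 IUCL-H (x axis) for LRP8 and MAPK4, the 5 named genes most like each and the named gene most opposite to each (y axis); circles are IUCL-H and squares IUHT-H. BOLA lies furthest to the left in IUHT-H, with a fitted log2 difference of -2.46, and CD244 and LCN2 lie to the right, with 0.68 and 1.44.

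Of the pathway genes of LRP8 and MAPK4, few could be named. Reelin, VLDLR, DAB1, apolipoprotein E, selenoprotein P, MAPK6 and MAPKAPK5 had no matched identifier and were not analysed here. Of 13 genes of the low density lipoprotein receptor family, 2 had one. Both were named by the study's lists of differentially expressed or methylated genes, so they are not a neutral sample of the family. The edgeR quasi-likelihood test called 0 of 2, with 0 of 2 also below an unadjusted 0.05, where 374 of all genes tested (2.54%) lay. Without IUCL-H 9202 that count was 1 of 2, through LRP5 at a log2 difference of -0.39. The share of all genes below 0.05 was not computed for that fit. Genes at a P of 0.01 or below rose from 63 to 246 in it, so the 1 of 2 cannot be read against 2.54%. LRP5, a co-receptor of Wnt ligands, was at 51.0, 67.1 and 65.6 CPM in IUCL-H 9202, 9214 and 9223 and at 54.5, 48.8 and 48.4 CPM in IUHT-H 9196, 9203 and 9204. The groups overlapped, and the log2 difference of LRP5 was -0.28 (SE 0.14, adjusted p = 0.999). LRP3, an endocytic receptor-like protein, was at 58.9, 50.3 and 57.8 CPM in the IUCL-H and at 51.0, 59.5 and 65.2 CPM in the IUHT-H, with a log2 difference of 0.07 (SE 0.13, adjusted p = 0.999). The differences of LRP5 and LRP3 from LRP8 were not tested.

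Scaling moved LRP8 more than MAPK4. With RLE, upper quartile or TMM factors, or without the 10 most counted genes, and with library size alone, the log2 difference of LRP8 was between -0.95 and -0.78 and that of MAPK4 between -1.07 and -0.97. Library size alone gave LRP8 at 2.93, 3.69 and 3.41 CPM in IUCL-H 9202, 9214 and 9223 and at 2.34, 2.23 and 1.29 CPM in IUHT-H 9196, 9203 and 9204, with the groups still apart. That scaling moved the median log2 difference of all genes from 0.0028 to 0.134. Relative to that median, LRP8 was at -0.91 and MAPK4 at -1.10. When every library was thinned to the smallest total, an alternative chosen after seeing the data, LRP8 was at -0.87 and MAPK4 at -1.06.

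Leaving out a single heifer gave a wider range for both genes than scaling did. The log2 difference of LRP8 lay between -1.12, without IUCL-H 9202, and -0.82, without IUCL-H 9214. For MAPK4 the ends were -1.29, without IUCL-H 9223, and -0.84, again without heifer 9214. In none of the 16 alternatives did the groups overlap for either gene, which the choice of both genes as lower in IUHT-H partly fixes. Many of the alternatives could hardly have given another outcome. DESeq2, the likelihood ratio test and the exact test use the same CPM. Leaving a heifer out of groups that are apart changes them only through rescaling. The ratio of the lowest IUCL-H to the highest IUHT-H ranged from 1.26 to 1.91 for LRP8 and from 1.10 to 1.81 for MAPK4. The library kit does not mark strand, so reads of an overlapping antisense gene cannot be told apart from those of either gene.

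**Figure D4:**
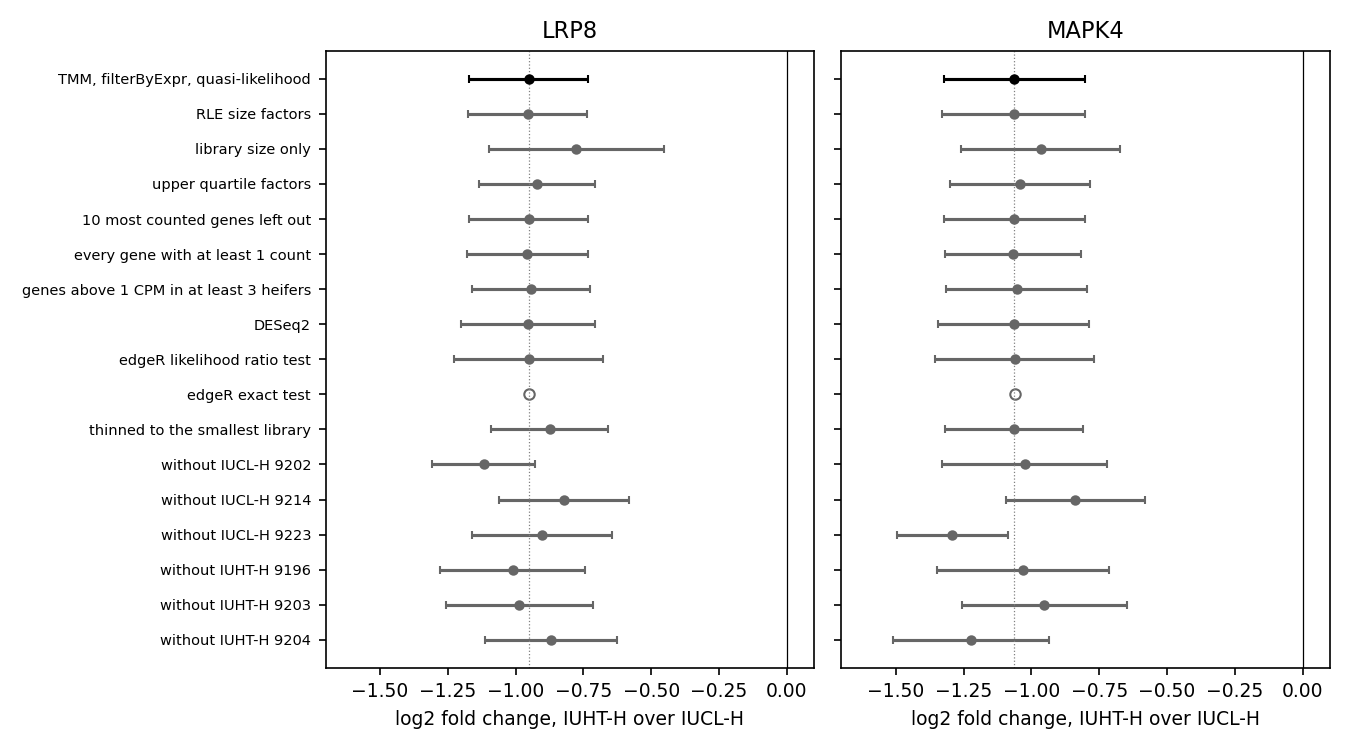
Log2 difference of IUHT-H relative to IUCL-H (x axis) for LRP8 and MAPK4 under each processing setting (y axis); points are fitted values, bars ± SE, the open circle a test that gives no SE, and the dotted line the value of the setting at the top. All points lie below 0, LRP8 between -1.12 and -0.78 and MAPK4 between -1.29 and -0.84.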

How the data were processed

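The authors sequenced mammary RNA, aligned reads with TopHat2 (version 2.0.13 in the submitters' notes) and counted them per Ensembl gene with HTSeq. The deposited values are raw counts. Genome builds differ between the submitters' notes and the study's methods, so no coordinates are given. Genes were filtered with filterByExpr and fitted with TMM factors and the quasi-likelihood test of edgeR 4.0.16 (R 4.3.3), called at a P of 0.01 as in the study's methods. CPM were TMM-normalized. A count of 3, taken as the limit that a count of 0 allows, equals 0.0298 to 0.0435 CPM. DESeq2 1.42.0, other edgeR tests, scalings and filters, thinning, and leaving out each heifer were alternatives. Heifers of a group differed beyond sampling noise.

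The members, lists and rules were chosen with earlier results of these data known. Named were the members, the fixed pathway genes and, per member, the 5 genes with a symbol, a mean of at least 1 CPM in either group and the highest r. Symbols came from the study's lists for 375 genes. For this reason 84 of 86 pathway genes and all 36 marker genes, with the chromosomal neighbours of both members, were not analysed here.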

Additional observations from a re-analysis of the deposited data

How the results depend on the processing

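No paired analysis was possible because the groups share no heifer numbers. LRP8 and MAPK4 kept their direction under all 16 alternatives, which their choice as lower in IUHT-H partly fixes. Each moved by less than the spread between heifers. Leaving out a heifer could pass that limit only through rescaling, and the other tests estimate nearly the same difference, so these alternatives say little about stability. The number of genes at a P of 0.01 or below was 63 and rose to 124 with DESeq2, 112 with the edgeR likelihood ratio test and 108 with the edgeR exact test. With a heifer left out it lay between 38, without IUCL-H 9214, and 246, without IUCL-H 9202, and was 225 without IUHT-H 9204; the cause was not tested. Library size alone gave 8 lower and 36 higher genes, against 21 and 42. Without IUCL-H 9214 there were 21 lower and 17 higher, without IUCL-H 9202 106 and 140, and without IUCL-H 9223 22 and 28. Without IUHT-H 9203 there were 21 and 25, and without IUHT-H 9204 81 and 144. After adjustment at 0.05 there were 0 genes, against 16 with DESeq2, 11 with the likelihood ratio test, 9 with the exact test, 3 without IUHT-H 9196, 2 without IUHT-H 9203 and 1 when every gene with at least 1 count was kept. Over all 6 heifers r of LRP8 with MAPK4 was 0.72, and with the group means taken away it was -0.20. With library size alone the latter was 0.042, and with a heifer left out it lay between -0.96, without IUCL-H 9214, and 0.070, without IUCL-H 9223. LRP3 was at 0.07 and turned to -0.01 without IUHT-H 9204. Counts per heifer of 110 to 374 for LRP8 and 289 to 891 for MAPK4 set the counting error.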
